A study of Mus musculus with 6 samples.

Results

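RNA from whole pancreas was examined for p53 and for the genes that gate the passage of cells out of G1. The genes were chosen by name, as Trp53, Mdm2, Cdkn1a, Cdkn1b, Ccnd1, Ccnd2, Ccnd3, Cdk4, Cdk6 and Rb1, and 9 of these 10 were measured among the 10245 genes of the table. Cdk6 was not analysed here. The 6 libraries came from 3 control mice (Ptf1a(CreER/+)) and 3 Ptf1a cKO mice (Ptf1a(CreER/fl)). All 6 mice received 0.25 mg of tamoxifen per g of body weight by gavage on 3 consecutive days and were killed on day 14. Both groups carry the CreER allele in place of a working Ptf1a copy, so the control mice were heterozygous for Ptf1a, and the genotypes given by the study include an EYFP reporter in both groups. Cre is driven from the Ptf1a locus, which is active in acinar cells, and cells that escaped recombination remain in the tissue. Control mice were 4 months and Ptf1a cKO mice 5 months old, so age and genotype cannot be told apart, and each group held 1 male and 2 females.

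p53, encoded by Trp53, is a transcription factor that is kept scarce by the ubiquitin ligase Mdm2 and is set free by DNA damage and other stress. Its level is controlled mostly at the protein, and its activity is commonly read from the transcripts it induces, among them those of Mdm2 itself and of Cdkn1a (p21). Cdkn1a and its relative Cdkn1b (p27) bind cyclin-dependent kinases and restrain them. The D-type cyclins Ccnd1, Ccnd2 and Ccnd3 pair with Cdk4 or Cdk6 to phosphorylate Rb1, which otherwise holds E2F factors inactive and keeps the genes of S phase silent. Adult acinar cells are mostly quiescent, and loss of p53 is a frequent event in pancreatic ductal adenocarcinoma.

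RefSeq promoter sequences of GRCm38.p6, taken as the 250 bases before a start site, were at hand for 6 of the 9 genes, in 8 windows. They were searched for the p53 response element (a pair of adjacent 10-base half-sites with the core bases intact and at most 1 mismatch), for CACGTG, which MYC and related factors bind, for CACCTG or CAGCTG, and for the E2F motifs TTTCCCGC, TTTCGCGC, TTTGCCGC and TTTGGCGC, on both strands. None of these motifs overlaps another in the windows printed. The sequences below are those of the p53 target Cdkn1a, at both of its start sites, and of Cdk4. Capitals mark the p53 response element in the first and CACGTG in the third.
Cdkn1a, upstream start, chr17:29090729-29090978, plus strand: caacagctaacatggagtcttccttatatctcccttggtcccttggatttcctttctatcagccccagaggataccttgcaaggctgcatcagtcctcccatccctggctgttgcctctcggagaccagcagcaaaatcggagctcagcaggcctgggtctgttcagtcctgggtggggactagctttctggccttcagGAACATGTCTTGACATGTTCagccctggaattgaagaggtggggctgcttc
Cdkn1a, downstream start, chr17:29093519-29093768, plus strand: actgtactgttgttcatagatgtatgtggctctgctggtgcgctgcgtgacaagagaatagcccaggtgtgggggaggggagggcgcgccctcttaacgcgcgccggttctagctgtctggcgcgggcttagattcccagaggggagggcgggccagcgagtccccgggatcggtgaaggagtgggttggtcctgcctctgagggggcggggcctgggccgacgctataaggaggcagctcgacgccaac
Cdk4, chr10:127063285-127063534, plus strand: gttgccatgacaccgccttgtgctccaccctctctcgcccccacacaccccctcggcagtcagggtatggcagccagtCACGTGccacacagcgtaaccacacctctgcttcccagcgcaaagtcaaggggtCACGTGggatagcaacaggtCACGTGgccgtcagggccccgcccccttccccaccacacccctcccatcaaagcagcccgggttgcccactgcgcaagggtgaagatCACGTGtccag
The p53 response element in the first window reads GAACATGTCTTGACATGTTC and begins 51 bases before the start. Of 32851 promoter windows of this length, 0.0578% held such an element. The Cdk4 window held 4 copies of CACGTG, a motif found at least once in 6.02% of all windows. CACCTG or CAGCTG occurred once in the second Cdkn1a window and once in that of Mdm2, against 27.7% of all windows, and no E2F motif was found in the windows of these genes, against 1.86%. The windows of Trp53, Cdkn1b and Ccnd3 held none of the 4 motifs. Such matches describe the letters and not the binding of a factor.

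Values are normalized read counts, scaled across libraries by the authors, and carry no sequencing depth. Precision therefore rests on the 3 mice of a group. For its p-values, limma sets the difference between groups against the variance within groups, drawn toward a trend over all genes. Summed over genes, normalized counts came to between 17949900 and 21175800 in control and to between 5527100 and 8981110 in Ptf1a cKO mice, while the median gene lay between 125.0 and 128.5 in every library. Groups were compared by limma on log2(value + pseudocount), with Benjamini-Hochberg adjustment over all genes and a threshold of 0.05 on the adjusted p-value. Ptf1a, the targeted gene, lay between 566 and 652 normalized counts in control libraries and between 10.2 and 70.1 in Ptf1a cKO libraries. The tissue markers moved too: all 16 acinar markers were lower in Ptf1a cKO with no overlap between the groups, 14 of them past the threshold, and higher past it were 11 of 12 fibroblast and stellate, 9 of 11 leukocyte, 5 of 8 duct and 2 of 3 cycling-cell markers, but none of 8 endothelial and none of 8 endocrine ones (limma). Of these lists, the leukocyte sum was 513 to 870 normalized counts in control and 1328 to 3237 in Ptf1a cKO, the fibroblast and stellate sum 3353 to 3939 and 6438 to 11604, the duct sum 3883 to 4751 and 25504 to 110250, and the cycling-cell sum 27.7 to 102 and 109 to 496. No marker measured was at 0 in any library. In whole tissue, fewer cells of a type and less RNA per cell cannot be told apart, and the part of these shifts in the results that follow was not tested.

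Of the 9 genes, 2 passed the threshold, Ccnd1 and Ccnd3, both lower in Ptf1a cKO pancreata, and none was higher past it. Among all genes measured, 33.9% passed, 16.8% lower and 17.1% higher, and 2 of 9 is a smaller share than that. For Ccnd1, Ccnd3, Cdkn1b and Rb1 the groups did not overlap, against 50.8% of all genes (26.5% with the groups apart and higher, 24.3% lower). As a set, the 9 genes had a median log2 fold change of 0.21, compared with 0.04 over the table. The directions given here hold with the authors' scaling, under which the median gene hardly moves. When the libraries were instead set to 1 common total, the median gene was at 1.48 and each of the 9 genes had a positive log2 fold change, the lowest being those of Ccnd1 (0.28) and Ccnd3 (0.93).

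**Figure D1:**
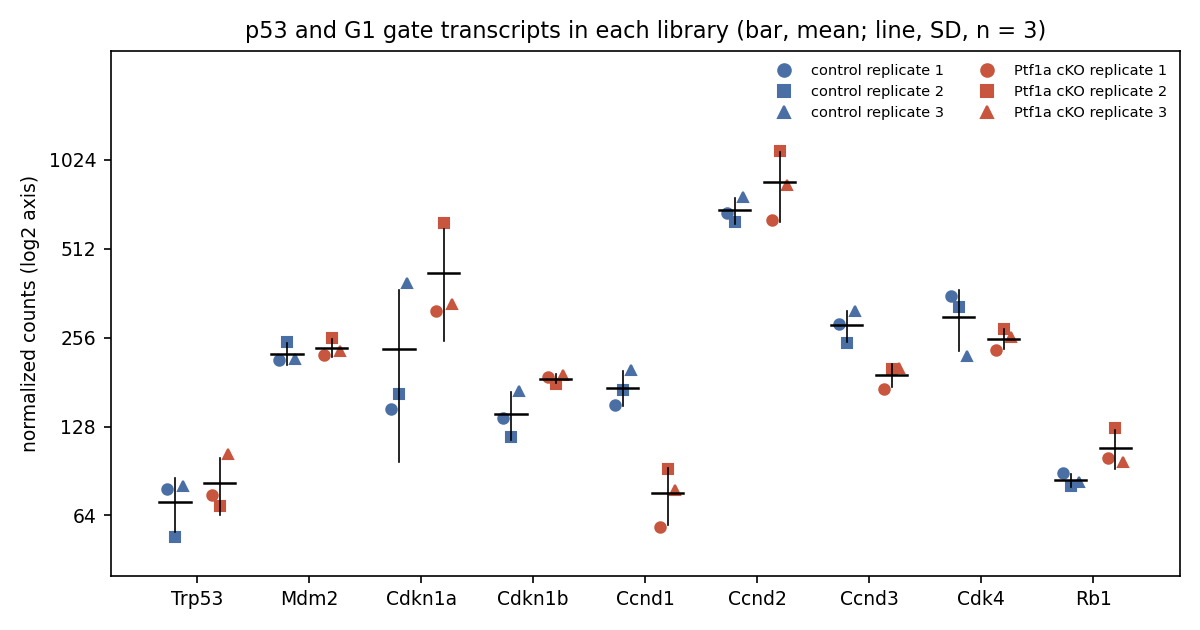
Normalized counts (log2 axis) of the 9 genes in each library, control in blue and Ptf1a cKO in red, with a symbol for each replicate, a bar at the mean and a line for the SD (n = 3). Under the authors' scaling, the 3 Ptf1a cKO values of Ccnd1 (58.3 to 91.9) lie below the 3 control values (152 to 198), and those of Trp53 overlap.

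Trp53 was measured at 78.5, 54.0 and 80.5 normalized counts in control replicates 1, 2 and 3, and at 75.3, 69.0 and 103 in Ptf1a cKO replicates 1, 2 and 3. The groups overlapped, with the lowest value in control replicate 2 and the highest in Ptf1a cKO replicate 3. The log2 fold change was 0.21, with a 95% interval from -0.25 to 0.67, and was not called (adjusted p = 0.458, limma). It ran from 0.029 without control replicate 2 to 0.32 without Ptf1a cKO replicate 2. By mean level, Trp53 stood at percentile 31.8 of all genes in the table. With 3 libraries in each group, 0.10 is the lowest two-sided p that an exact permutation test can reach.

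Mdm2, which encodes the ligase that marks p53 for degradation and is itself induced by p53, was at 214, 248 and 217 normalized counts in control and at 224, 256 and 230 in Ptf1a cKO libraries. The groups overlapped almost fully. Its log2 fold change of 0.07 had the narrowest interval of the 9 genes, from -0.20 to 0.33 (adjusted p = 0.689, limma). Mdm4, the relative of Mdm2 that inhibits p53 without degrading it, averaged 101 ± 15.0 in control and 136 ± 32.5 in Ptf1a cKO mice (SD over 3 libraries), and the difference of 0.39 on the log2 scale missed the threshold (adjusted p = 0.125, limma). The ratio of Mdm2 to Trp53 within a library, which no scaling of libraries can change, was 2.73, 4.59 and 2.69 in control and 2.98, 3.71 and 2.23 in Ptf1a cKO, with overlapping groups (exact permutation test, two-sided p = 0.70).

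Cdkn1a, the p53 target whose upstream promoter window is shown above, varied most between mice of the 9 genes. It was at 147, 165 and 394 normalized counts in control libraries and at 314, 626 and 333 in Ptf1a cKO libraries. Control replicate 3 lay above 2 of the 3 Ptf1a cKO values, and Ptf1a cKO replicate 2 was the highest of all. The log2 fold change of 0.92 (95% interval 0.07 to 1.76) did not pass after adjustment (adjusted p = 0.0871, limma). Without control replicate 3 it was 1.36 and passed (adjusted p = 0.0134, limma), and without Ptf1a cKO replicate 2 it was 0.60 (adjusted p = 0.203, limma). The male mice, control replicate 1 and Ptf1a cKO replicate 2, differed by 2.07 and the female mice by 0.34 on the log2 scale. The interaction with sex, 1.73, did not pass (adjusted p = 0.774, limma, and unadjusted p = 0.0165), and with 1 male a group it cannot be told apart from those mice. The cycling marker Mki67 showed the same pair of high libraries within their groups, with 54.3 normalized counts in control replicate 3 and 256 in Ptf1a cKO replicate 2, and the part of cycling cells in the Cdkn1a values was not tested.

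The p53 target list held 36 genes with Cdkn1a and Mdm2 among them, and 27 of the 36 were measured. Past the threshold, 5 were higher (Phlda3, Trp53inp1, Apaf1, Ccng1 and Bax), 2 were lower (Plk2 and Sesn1), and 20 did not pass, which is 7 of 27 where 33.9% of all genes passed. The list had a median of 0.40 on the log2 scale, against 0.04 over all genes. Phlda3, an inhibitor of AKT signaling, went from 37.8, 20.2 and 27.0 normalized counts to 65.1, 159 and 83.1, a log2 fold change of 1.68 (adjusted p = 0.00467, limma). Trp53inp1, which encodes a stress protein that promotes p53-dependent cell death and autophagy, rose from 354 ± 82.1 to 833 ± 150 (SD, n = 3 each; log2 fold change 1.24, adjusted p = 0.00146, limma). Apaf1, the scaffold of the apoptosome, rose by 1.19, Ccng1, the cyclin G1 gene, by 0.82 and Bax, a pore-forming mediator of apoptosis, by 0.81 on the log2 scale. In each of these 5 genes all Ptf1a cKO libraries lay above all control libraries, and each passed in all 6 fits with a library left out.

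The fall of Plk2, a stress-induced kinase with a role in centriole duplication, was the largest of the list. It went from 2208, 2647 and 2609 normalized counts in control to 294, 552 and 205 in Ptf1a cKO libraries. On the log2 scale it fell by 2.93 (standard error 0.30; adjusted p = 2.27e-04, limma), and it stayed negative when libraries were set to 1 common total (-1.44). Sesn1, which encodes a sestrin that restrains mTORC1, fell by 0.76 on the log2 scale (adjusted p = 0.0130, limma), and its sign was positive (0.72) under that scaling. Neither gene overlapped between groups.

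Of 19 listed regulators of p53, 15 were measured. Hipk2, a kinase that phosphorylates p53, Atr, a kinase of the response to stalled replication, and Trp53bp1, a damage-response protein that binds p53, were higher, and Rchy1, a ubiquitin ligase for p53, was lower past the threshold. The other 11 did not pass, among them Atm, Ep300, Usp7 and Sirt1, and the list's median was 0.17 on the log2 scale. The 4 calls among 15 are a smaller share than the 33.9% of all genes that passed, whose median was 0.04. Rchy1 went from 477, 553 and 493 normalized counts to 310, 330 and 253, with groups apart and a log2 fold change of -0.77 (adjusted p = 0.00247, limma), but 0.72 with libraries set to 1 common total. The rises of Hipk2 (0.96), Atr (0.81) and Trp53bp1 (0.43) on the log2 scale were less secure. The number of regulators past the threshold fell from 4 to 2 without control replicate 1, 2 or 3 and to 1 without Ptf1a cKO replicate 3.

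**Figure D2:**
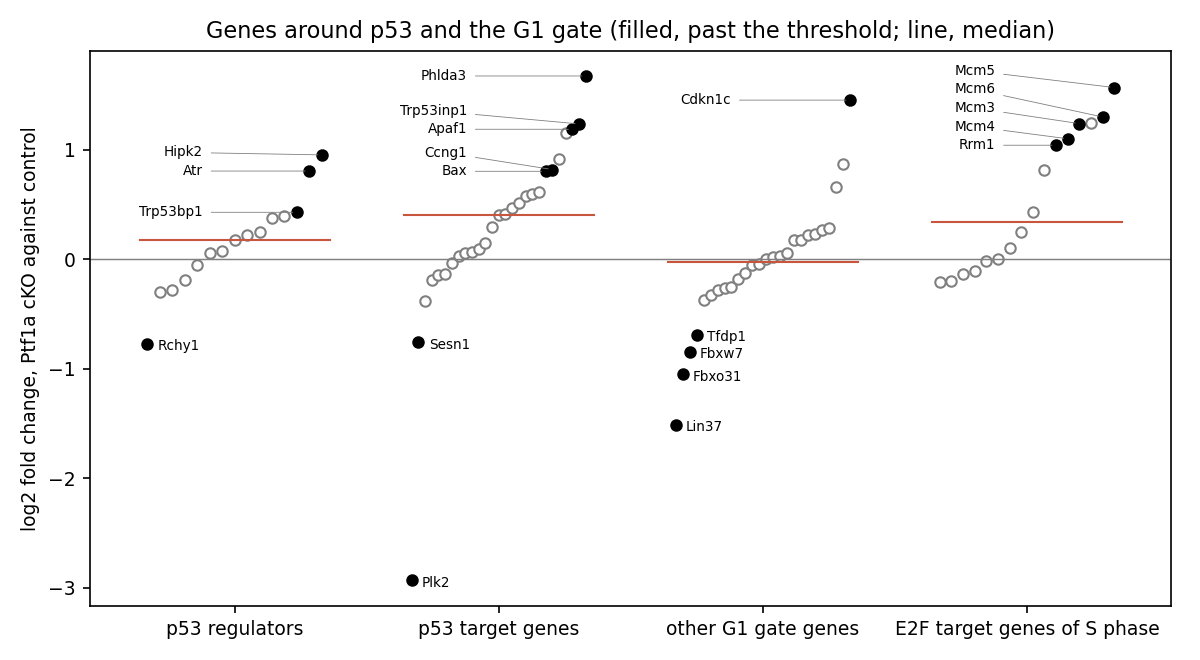
Log2 fold change (y axis, Ptf1a cKO against control, authors' scaling) of the measured genes of 4 lists around p53 and the G1 gate, ordered by size within each list; filled points passed the threshold, open points did not, and the red line is the list's median. Among p53 targets, Plk2 lies alone at -2.93, while Phlda3, Trp53inp1, Apaf1, Ccng1 and Bax lie at 0.81 or above.

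The D-type cyclins differed from each other, Ccnd1 and Ccnd3 being lower and Ccnd2 without a call. Ccnd1 was at 152, 170 and 198 in control libraries and at 58.3, 91.9 and 78.1 normalized counts in Ptf1a cKO ones. Every Ptf1a cKO value lay below every control value, and the Ptf1a cKO mean was 0.439 times the control mean. It fell by 1.17 on the log2 scale (95% interval -1.57 to -0.77; adjusted p = 0.00148, limma), at percentile 3.36 of all genes. It passed in all 6 fits with a library left out (-1.31 to -0.997) and in female mice alone (-1.40), and the exact permutation test gave the smallest p that 3 against 3 allow (two-sided p = 0.10). After rescaling to the same total Ccnd1 was at 0.28 against 1.48 for the median gene, and with each library then centred on its median gene at -1.18.

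Ccnd3 fell less, from 285, 246 and 314 to 171, 201 and 202 normalized counts. Its groups did not overlap, and it fell by 0.55 on the log2 scale (95% interval -0.84 to -0.25; adjusted p = 0.0119, limma). The call held with each library left out (-0.64 to -0.47), but was lost in female mice alone (-0.57, adjusted p = 0.0504, limma) and with libraries rescaled to the same total without the acinar secretory genes (-0.37, adjusted p = 0.0764, limma).

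Ccnd2 was at 676, 633 and 769 normalized counts in control and at 643, 1099 and 842 in Ptf1a cKO libraries. The groups overlapped, since Ptf1a cKO replicate 1 lay within the control range, and the log2 fold change of 0.28 (95% interval -0.14 to 0.70) did not pass (adjusted p = 0.263, limma). Without Ptf1a cKO replicate 2 it was 0.09, and without Ptf1a cKO replicate 1 it was 0.48 (adjusted p = 0.0622, limma).

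Because 2 genes of the same library share its scaling, their ratio is free of it. The ratio of Ccnd1 to Ccnd2 was 0.225, 0.268 and 0.258 in control and 0.0905, 0.0836 and 0.0927 in Ptf1a cKO libraries. The groups were far apart, with a difference in mean log2 ratio of -1.49 against SDs of 0.13 and 0.08 (n = 3 each; -1.57 to -1.44 with a library left out). Ccnd1 was also lower relative to Ccnd3 (-0.65), Cdk4 (-0.99) and Cdkn1b (-1.62), and Ccnd2 higher relative to Ccnd3 (0.84), each with groups apart. For all 5 of these ratios the exact permutation test gave two-sided p = 0.10, the smallest possible, and 0.16 after Benjamini-Hochberg adjustment over the 8 ratios computed. The other 3 ratios, Mdm2 to Trp53, Cdkn1a to Trp53 and Cdkn1a to Cdkn1b, overlapped between groups.

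**Figure D3:**
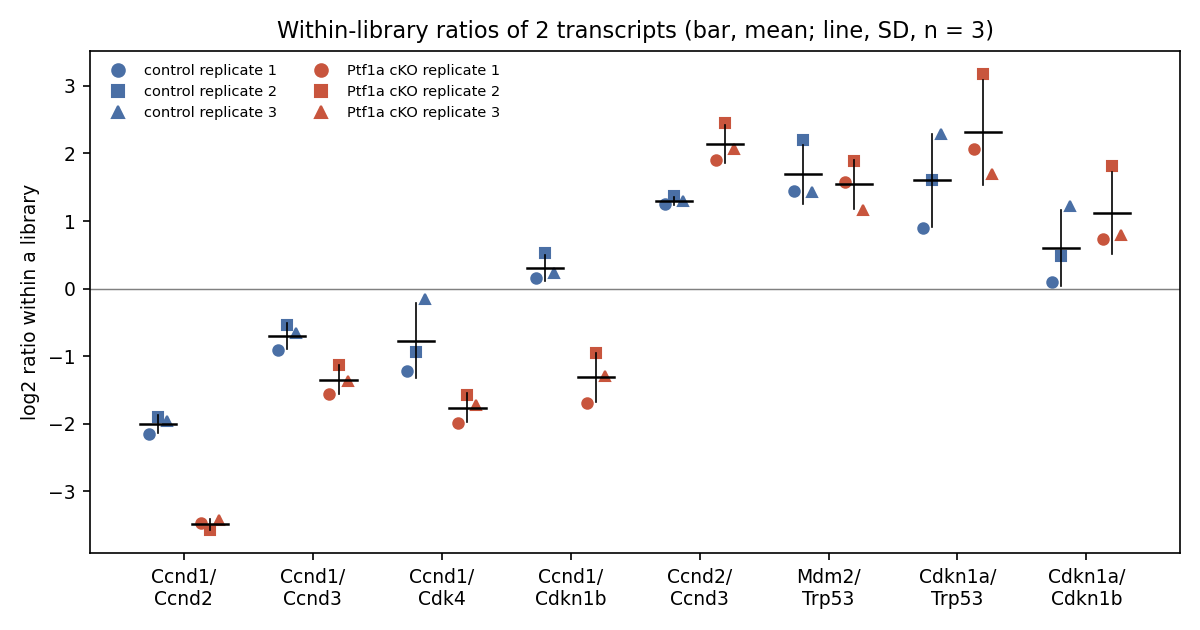
Log2 ratio of 2 transcripts within a library (y axis) for 8 pairs of genes, control in blue and Ptf1a cKO in red, with a symbol for each replicate, a bar at the mean and a line for the SD (n = 3). For Ccnd1 to Ccnd2 the 3 Ptf1a cKO libraries have an SD of 0.08 and lie 1.49 below the controls on average, whereas the ratios of Mdm2 and Cdkn1a to Trp53 overlap.

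Per kb of annotated exon, Ccnd2 had the highest level of the D-type cyclins in every library. Length here is the union of exons over all annotated isoforms (4.709 kb for Ccnd1, 9.409 for Ccnd2 and 8.775 for Ccnd3). It can exceed the length of the transcript expressed. The order of the genes and their shares depend on it, and which isoforms were expressed was not tested. Ccnd1 made up 23.6%, 27.5% and 26.4% of the summed D-type cyclin level per kb in control libraries and 12.3%, 12.3% and 12.8% in Ptf1a cKO libraries. The share of Ccnd2 went from 51.7% ± 0.81 to 70.3% ± 2.72, and that of Ccnd3 from 22.5% ± 1.22 to 17.2% ± 2.61 (SD, n = 3 each). The sum itself, 143 ± 15.0 normalized counts per kb in control and 130 ± 29.4 in Ptf1a cKO (SD, n = 3 each), overlapped between groups, its values being 137, 131 and 160 against 100.3, 159 and 129.

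**Figure D4:**
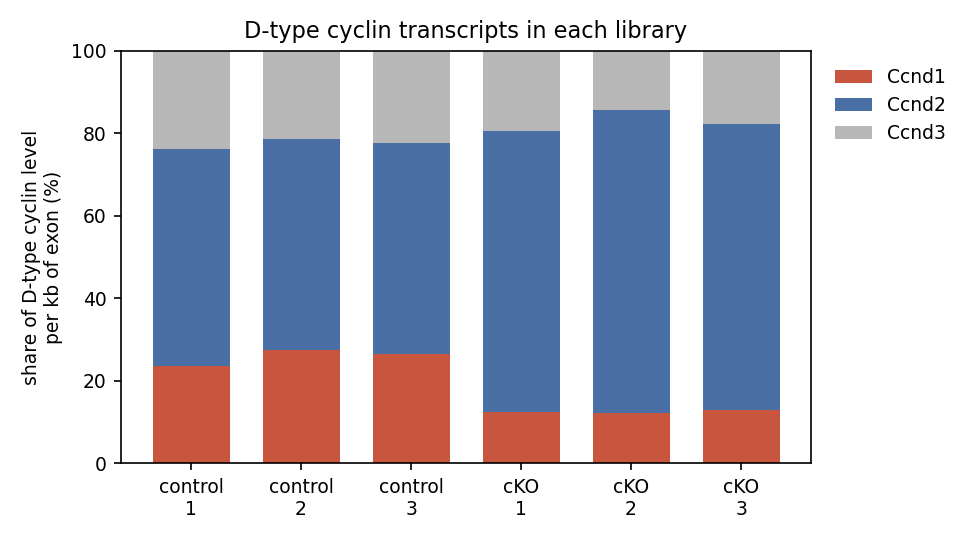
Share (%) of each D-type cyclin in the summed level per kb of exon (union over annotated isoforms), as a stacked bar for each library. Ccnd1 takes 23.6% to 27.5% in the 3 control libraries and 12.3% to 12.8% in the 3 Ptf1a cKO libraries.

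Cdk4, the kinase partner of the D-type cyclins, was at 355, 325 and 221 normalized counts in control and at 233, 273 and 257 in Ptf1a cKO libraries. Control replicate 3 was the lowest of the 6, below every Ptf1a cKO library, and the other control libraries were the highest. Its log2 fold change of -0.21 (95% interval -0.61 to 0.18, adjusted p = 0.372, limma) became -0.42 without control replicate 3 (adjusted p = 0.0362, limma) and -0.08 without control replicate 1 (adjusted p = 0.784, limma). Cdk4 shares 19.7% of its exonic bases with Tspan31 on the opposite strand. Tspan31 itself rose by 0.39 on the log2 scale (adjusted p = 0.0392, limma), opposite in sign to Cdk4, but missed the threshold in 4 of the 6 fits with a library left out (highest adjusted p = 0.138, limma).

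Cdkn1b, the p27 inhibitor, was at 137, 118 and 169 normalized counts in control and at 188, 178 and 192 in Ptf1a cKO libraries, close together and above all controls. The log2 fold change of 0.40 (95% interval 0.08 to 0.73) fell just short of the threshold (adjusted p = 0.0560, limma). It passed with libraries set to the same 75th percentile (0.45, adjusted p = 0.0436, limma) and without control replicate 3 (0.54, adjusted p = 0.0155, limma), and was 0.28 without control replicate 2 (adjusted p = 0.189, limma).

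Rb1, the retinoblastoma protein gene, was at 89.1, 80.4 and 83.1 normalized counts in control and at 100.5, 127 and 97.1 in Ptf1a cKO libraries. The groups did not overlap, but the log2 fold change of 0.34 (95% interval 0.02 to 0.66) did not pass (adjusted p = 0.0892, limma). Of its exonic bases 14.9% are shared with Lpar6 and Rcbtb2 on the opposite strand, and both of those rose (0.83, adjusted p = 0.0282, and 0.79, adjusted p = 0.00235, limma), although Lpar6 missed the threshold in 4 of the 6 fits with a library left out (highest adjusted p = 0.0993, limma). Whether the authors' counting used strand is not given in the sources used here. Ccnd1 shares 23.4% of its exonic bases with Oraov1 on the opposite strand, which was at 0.12 (adjusted p = 0.610, limma), and Ccnd3 shares 4.11% with Bysl, which fell by 0.57 on the log2 scale (adjusted p = 0.0125, limma). Trp53, Mdm2 and Cdkn1b share no exonic bases with another annotated gene. Pseudogenes named after Trp53 (Trp53-ps) and Ccnd3 (Ccnd3-ps) are annotated, and any effect of them on the counts was not tested.

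**Figure D5:**
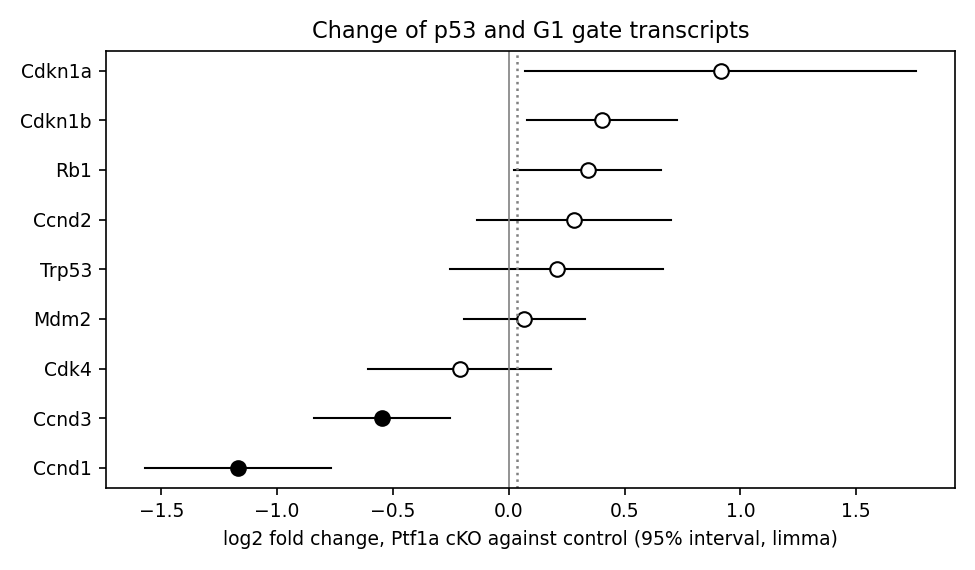
Log2 fold change of the 9 genes (x axis, Ptf1a cKO against control, authors' scaling) with 95% intervals from limma; filled points passed the threshold, the solid line marks 0 and the dotted line the median of all genes (0.04). The intervals of Ccnd1 and Ccnd3 lie below 0 and passed, those of Cdkn1a, Cdkn1b and Rb1 lie above 0 but did not pass after adjustment over all genes, and that of Trp53 spans 0.

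In normalized counts per kb, the control libraries ranked Cdk4 (92.4 ± 21.6) first, followed by Ccnd2 (73.7 ± 7.39), Cdkn1a (66.1 ± 38.7), Mdm2 (44.5 ± 3.67), Ccnd1 (36.8 ± 4.97), Ccnd3 (32.1 ± 3.90), Cdkn1b (31.0 ± 5.71), Trp53 (17.6 ± 3.66) and Rb1 (14.0 ± 0.74), each as mean and SD of 3 libraries. Neighbours in this order lay within their spread of each other, except for Mdm2 against Ccnd1 and Cdkn1b against Trp53, whose 3 values did not overlap, in the former case by a narrow margin (42.2 to 48.7 against 32.3 to 42.1). In Ptf1a cKO libraries Cdkn1a (119 ± 49.3) came first and Ccnd1 (16.2 ± 3.59) last, below Rb1 (17.98 ± 2.69) though within their spread. Both orders depend on the length taken, the union of exons over all annotated isoforms.

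The rest of the G1 machinery was measured for 26 of 37 listed genes, of which 1 was higher and 4 were lower past the threshold, with a median log2 fold change of -0.02. These 5 calls among 26 are a smaller share than the 33.9% called over all genes. Cdkn1c, the p57 inhibitor of the same family as Cdkn1a and Cdkn1b, rose, at 27.5, 15.4 and 19.3 normalized counts against 37.7, 43.5 and 138 in Ptf1a cKO, a log2 fold change of 1.46 (adjusted p = 0.0314, limma). It was 0.89 without Ptf1a cKO replicate 3 (adjusted p = 0.0610, limma), and missed the threshold without any 1 of the control libraries too (highest adjusted p = 0.0986, limma). Lin37, a subunit of the DREAM complex that represses cell cycle genes in quiescent cells, fell from 154, 154 and 178 to 51.6, 68.7 and 45.2 normalized counts (log2 fold change -1.51, adjusted p = 3.08e-04, limma). Fbxo31 (-1.05) and Fbxw7 (-0.84), substrate receptors of ubiquitin ligases that degrade cyclin D1 and cyclin E respectively, and Tfdp1 (-0.69), the E2F dimerization partner, fell as well, although Tfdp1 missed the threshold in 4 of the 6 fits with a library left out. With libraries set to 1 common total, Lin37 was at -0.07 and the other 3 falls turned positive. The number of these genes past the threshold was 3 without control replicate 1 and 3 without Ptf1a cKO replicate 3, in place of 5. Rbl2, E2f4, Cdk2, Cdk7 and Cdc25a were among the 21 that did not pass.

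E2F target genes that act in S phase lie downstream of the gate. Of 25 listed, 16 were measured, and 5 were higher past the threshold with none lower. Of all genes, 33.9% passed in either direction, 17.1% higher and 16.8% lower. The 5 of 16 are near the share called in either direction. Since all 5 were higher, they are a larger share than the 17.1% called higher, and the list was not tested as a set. The list had a median of 0.34 on the log2 scale, against 0.04 over all genes. The 5 genes were Mcm3, Mcm4, Mcm5 and Mcm6, subunits of the replicative helicase, and Rrm1, the large subunit of ribonucleotide reductase. Mcm6 went from 39.5, 46.4 and 37.6 normalized counts to 75.8, 153 and 102, a log2 fold change of 1.30 (adjusted p = 0.00329, limma). Mcm5 rose by 1.57, Mcm3 by 1.24, Mcm4 by 1.10 and Rrm1 by 1.04 on the log2 scale, with groups apart in each. Mcm2 (-0.13), Mcm7 (0.25), Pcna (-0.11) and Rrm2 (-0.20) did not pass. All 5 rises stood with each library left out, while in female mice alone 3 passed. Mki67, a marker of cycling cells, was at 15.4, 13.2 and 54.3 in control libraries and at 59.9, 256 and 76.6 normalized counts in Ptf1a cKO ones (log2 fold change 2.06, adjusted p = 0.0241, limma), a call lost without control replicate 1 or 2.

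The genes whose values followed Trp53 most closely over the 6 libraries were Pmvk, Ddx59, Rab3a, Tfpi and Stat2. Their log2 values, each taken relative to its own mean, differed from those of Trp53 by a root mean square of 0.086 to 0.096, against 0.37 for the median gene. Nearest to Cdkn1a were Aldh1a2, Gdf10 and Penk, at 0.20 to 0.22 against 0.75. Likeness over 6 libraries describes these libraries only.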

How the data were processed

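The authors sequenced RNA of whole pancreas from 3 control and 3 Ptf1a cKO mice, with 50-nucleotide single-end reads. The methods of the study name Tophat2 and edgeR with TMM normalization, and the submitters' processing notes list TopHat2 2.0.4, Bowtie 0.12.7.0, SAMtools 0.1.18.0, HTSeq 0.6.0 and mm9. The authors deposited a single table of normalized read counts, treated here as a signal: the values carry decimals with no common step, so whole reads could not be recovered and no count test was run. Depth per library is not in the values. The highest of the 6 values is 27.6 or more for each gene. The 3 entries without a gene (75.7% to 82.6% of a library's total, mostly alignments that were not unique) were left out.

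All values were divided by 13.6 (mean library total of 1 M) and log2(value + 0.25) was taken, a pseudocount of 3.41 normalized counts. A required mean of 0.25 removed 0 genes. limma 3.58.1 (R 4.3.3) was fitted to all 10245 genes with its trend option, genotype alone in the model and two-sided testing. Fold changes, being taken on log2(value + pseudocount), understate changes of low genes. The fit was also run on simulated data with independent values and few changed genes. That setting is unlike these data, and no result here rests on it. Ratios and levels used Python 3.11.15 with scipy 1.17.1. Exonic lengths, as the union of exons over all annotated isoforms, and overlaps are those of GENCODE M21 (GRCm38), looked up by symbol.

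The members and lists were chosen with earlier results of these data known. Named were all members, Ptf1a, from each list up to 4 rises and 4 falls past the threshold, Mdm4, and the genes most like Trp53 (5), Cdkn1a (3) and Ccnd1 (3), the last of which are not reported here. Bax, Rrm1, Mki67, Rps27l, Mthfd1, the genes that share exons with members and members of lists that did not pass were named after their values were seen. Alternatives were other pseudocounts (0.05, 1), filters, scalings, limma without trend or robust, blocking on the replicate number, adding sex to the model, female mice alone and each library left out.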

Additional observations from a re-analysis of the deposited data

How the results depend on the processing

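Each gene and count was recomputed under up to 21 alternatives, and the ratios under 7. Ccnd1 stayed lower past the threshold in 20 of 21. Setting libraries to 1 common total moved the median gene by 1.48 and the calls over all genes from 1751 higher and 1724 lower to 9587 and 129. It put Trp53 at 1.64 and called 8 of the 9 genes, 15 p53 regulators, 27 p53 targets, 24 other G1 genes and 16 E2F targets. It turned the sign of Ccnd1 (0.28), Ccnd3 (0.93), Cdk4 (1.27), Rchy1 (0.72), Sesn1 (0.72), Fbxo31 (0.44), Fbxw7 (0.61), Tfdp1 (0.73), Bysl (0.88), Rps27l (0.72) and Mthfd1 (1.32). With libraries then centred on the median gene, chosen after seeing the data, Ccnd1 and Ccnd3 again were the 2 members past the threshold. A common total without 40 acinar secretory genes called 2780 genes higher and 1036 lower, 7 regulators and 14 targets, with Mthfd1 at 0.0095. A mean of at least 5 left 4 E2F targets to test, of which 2 passed. Female mice alone, with fewer libraries, gave 1 member, 2 regulators and 3 E2F targets, with Mdm2 at -0.028 and Oraov1 at -0.064, and ratios of -0.073 for Cdkn1a to Trp53, -0.87 for Ccnd1 to Ccnd3 and -0.082 for Cdkn1a to Cdkn1b.

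With single libraries left out, the calls ran from 2 to 5 members (5 without control replicate 3), from 1 to 4 regulators and from 3 to 6 other G1 genes, and Mthfd1 from -0.47 to 0.028. The causes of these changes were not tested. No pairing of libraries by replicate number is given by the labels. Deviations of libraries with the same number correlated at 0.039, 0.13 and 0.14 across genes, and those with different numbers at -0.20 to 0.083. These values do not settle whether the numbers mark pairs. With the replicate number as a block, Cdkn1b passed (0.40, adjusted p = 0.0473, limma) and Atr did not (0.81, adjusted p = 0.0506, limma), while calls over all genes became 1814 higher and 1711 lower. Count models were not run. Without depth, no counting error can be given for low genes such as Mcm5 or Mki67.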

Other observations

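The p53 response element searched for in Cdkn1a occurred in the promoter windows of 19 mouse genes, of which 4 were measured here, a group set by sequence and not by expression. Ccng1 (cyclin G1) was higher in Ptf1a cKO, rising from 602 ± 62.8 to 1071 ± 167 normalized counts (SD, n = 3 each), with a log2 fold change of 0.82 (adjusted p = 0.00260, limma). Rps27l, a ribosomal protein paralog that p53 is known to induce, was lower under the authors' scaling (-0.77, adjusted p = 0.0166, limma). It did not pass without control replicate 1 (adjusted p = 0.0574, limma) or 2 (adjusted p = 0.0662, limma). Cdkn1a (0.92) and Mthfd1 (-0.16), an enzyme of folate metabolism, did not pass. The 4 genes thus included 1 call in each direction, where 17.1% of all genes were called higher and 16.8% lower. So few genes do not tell this group from the table as a whole.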
